A study of Mus musculus with 6 samples.

Results

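The genes described here encode the guidance cues that steer axons and their receptors: the semaphorins with their plexin and neuropilin receptors, the ephrins with the Eph receptor kinases, the Slits with the Robo receptors, and the netrins with the Unc5 receptors. Members were all genes whose symbol in the platform annotation began with Sema, Plxn, Efn, Robo, Ntn or Unc5, or with Epha, Ephb, Slit or Nrp followed by a digit, which gave 68 of the 16446 genes with a symbol. A gene with several probes was read from the probe with the highest mean over the 6 arrays, which concerned Ntng1 alone. The rule also took Unc50 and Unc5cl, which share the letters of the Unc5 receptors but are not netrin receptors, and they are kept apart below. Messenger RNA was measured on single-colour arrays in hepatic stellate cells, which sit along the liver sinusoids and store vitamin A, from Sept4 knockout mice (KO, 3 arrays) and wild-type mice (WT, 3 arrays). Liver cirrhosis had been induced in both genotypes with the hepatotoxin carbon tetrachloride (CCl4), so no array shows uninjured cells. Sept4 is a member of the septins, GTP-binding proteins that assemble into filaments. The labels give no strain, age, sex, dose or duration of treatment, do not describe how the allele was made, and do not say whether an array holds 1 mouse or a pool.

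Semaphorins are secreted or membrane-bound proteins that bind plexins; those of class 3 are secreted and mostly need a neuropilin as a co-receptor. Ephrins stay on the cell surface and activate Eph receptor tyrosine kinases on the neighbouring cell. Slits are secreted ligands of Robo receptors, and netrins such as Ntn1 bind Dcc, neogenin and the Unc5 receptors. All of these receptors act on the actin cytoskeleton through small GTPases, and outside the nervous system they act in vessel growth and in cell contact and migration. In the liver, neuropilin 1 is known from work on stellate cells as a partner of growth factor receptors.

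The values are log2 signals as the authors deposited them. The array medians were all 5.02, and each array had 940 to 1255 of its 23473 probes tied at one floor value, which ran from 0.31 to 0.32 on KO arrays and from 0 to 0.22 on WT arrays; a level there is a bound. Pearson correlations across probes, which are not independent replicates, were 0.981 to 0.982 among KO arrays, 0.986 among WT arrays and 0.967 to 0.971 between the genotypes. The highest value was 16.6 to 16.8 on KO arrays and 15.7 to 15.8 on WT arrays. The sources used here do not say whether KO and WT arrays were processed together, so genotype and processing cannot be told apart. No label says that the arrays of a genotype are separate cell preparations, and a p-value here reflects only the scatter among 6 arrays, which could be technical. No probe was named Sept4, and the deleted gene itself was not analysed here. Of 10 stellate cell markers, all 10 were measured, and 8 were higher and 1 was lower in KO cells, against 29.4% and 14.9% of all genes. None was at the lowest value on any array, and their summed linear signal was 16835 to 17690 on KO arrays and 9451 to 9866 on WT arrays. Of 7 myofibroblast markers, 1 was higher and 6 were lower in KO cells, beside the same shares of all genes. Their summed signals were 31401 to 33627 on KO arrays and 52345 to 58658 on WT arrays. The brightest probe makes up most of each sum, Dcn with 66.6% in KO and 63.7% in WT cells and Acta2 with 81.3% and 69.4%. Some markers of other cell types were also called. In each list named next in this paragraph the share called was below the 44.3% of all genes. Of 6 portal fibroblast and mesothelial markers 1 was higher (Entpd2) and 1 lower (Thy1), with sums of 119 to 135 on KO arrays and 231 to 258 on WT arrays. Thy1 alone made up 25.2% of the sum in KO cells and 63.3% in WT cells. Of 5 cholangiocyte markers 1 was lower (Spp1, also a myofibroblast marker), with sums of 500 to 527 on KO arrays and 1090 to 1191 on WT arrays. Spp1 alone made up 90.3% of that sum in KO cells and 96.6% in WT cells. Of 8 macrophage markers 1 was higher and 2 were lower, of 6 lymphocyte markers 1 was higher, of 6 hepatocyte markers 1 was lower, and of 5 glial and neuronal markers 1 was higher and 1 lower. The part of these cells in the differences below was not tested.

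Guidance genes moved in both directions in KO cells, with a median difference near 0. Of the 68, 15 were higher (22.1%), 10 were lower (14.7%) and 43 did not pass an adjusted p of 0.05 in limma. Among members with a mean log2 signal of 3 or more, the largest changes were within the secreted semaphorins. Sema3c and Sema3e were lower and Sema3f was higher, each by more than 2-fold, and Sema3e was the dimmest of these, with a mean signal of 4.48. Among receptors the netrin receptors Unc5a and Unc5b changed in opposite directions. The array as a whole changed more often: 42.7% of all 23473 probes passed, 26.7% as higher and 16% as lower, and among the 16446 genes 44.3% passed, 29.4% as higher and 14.9% as lower. The share of guidance genes that passed, 36.8%, was thus no higher than that of all genes. The median log2 difference, KO minus WT, was -0.02 for the 68 genes and 0.14 for all genes. The median over all probes was 0.12, and it became 0.02 after quantile normalisation and 0.01 after the arrays were shifted to one upper quartile, so differences are best read against that offset. The split of the called guidance genes moved with it, with 14 higher and 13 lower after quantile normalisation and 13 higher and 14 lower after the upper-quartile shift. The split of all genes moved too, to 24.7% higher and 19.5% lower after quantile normalisation and 23.8% and 20.1% after the shift. In a bulk sample, fewer cells of a type and less RNA per cell cannot be told apart.

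**Figure D1:**
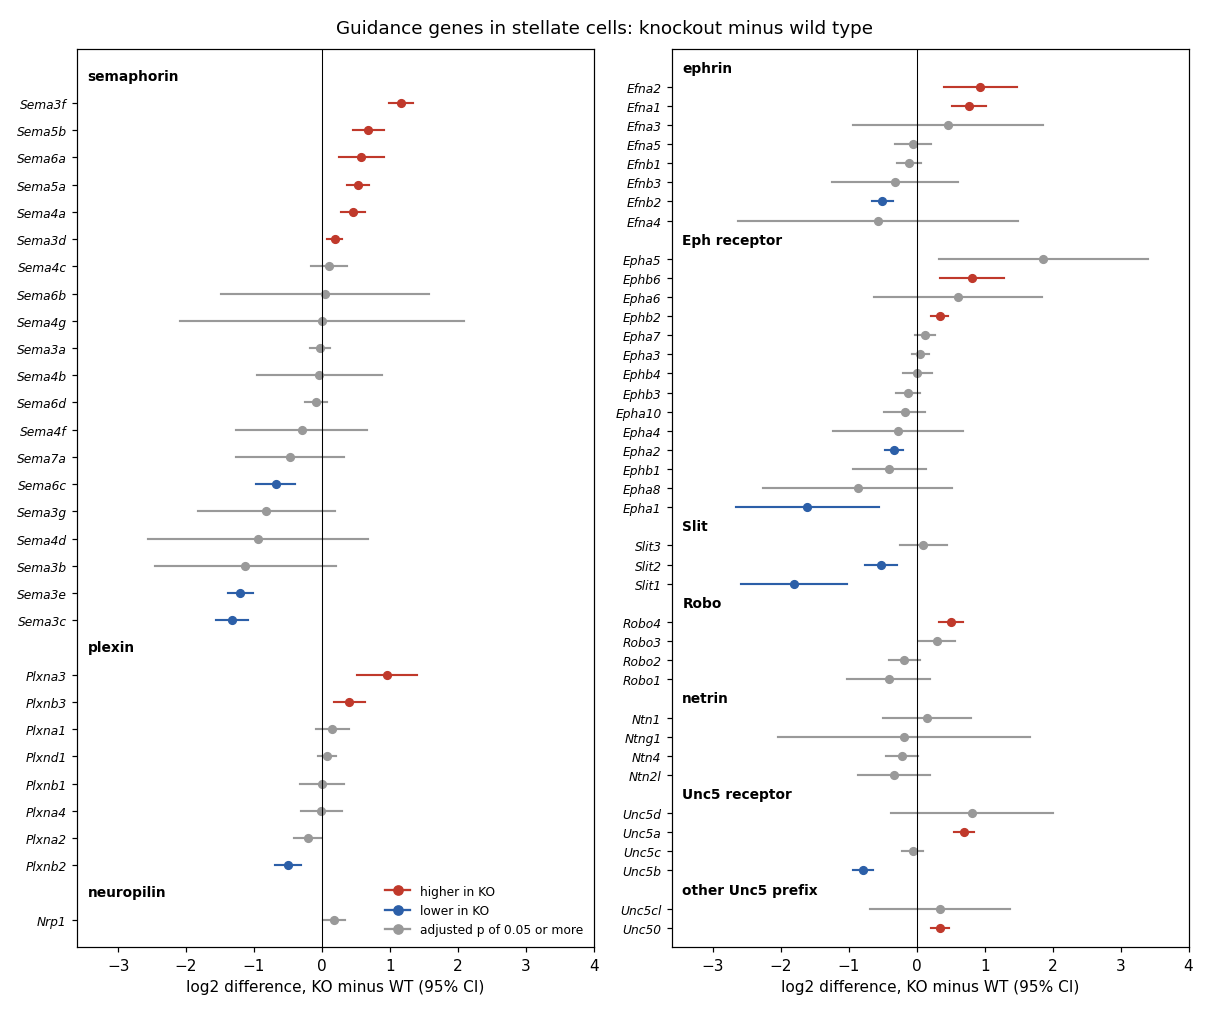
Log2 difference of each of the 68 guidance genes, KO minus WT (points), with its 95% confidence interval (lines), grouped by family. Red and blue points passed an adjusted p of 0.05 as higher or lower in KO cells; every family with more than 1 called gene except the Slits holds genes that moved both ways.

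How often a guidance gene passed followed how bright it was. Of 20 members with a mean log2 signal under 3, 2 passed, both lower in KO cells, against 13.1% of all genes in that range. Of 14 members between 3 and 5, 6 passed, against 30.3% of all genes. Between 5 and 7, 8 of 18 passed, against 55.6%, and at 7 or more 9 of 16 passed, against 69.3%. The 3 KO values lay wholly above or wholly below the 3 WT values for 32 of the 68 genes, against 56.2% of all probes. These 32 include all 25 that passed and 7 that did not. At least a 2-fold difference was reached by 5 called genes, of which Sema3f was higher and Sema3c, Sema3e, Slit1 and Epha1 were lower in KO cells. Among all 16446 genes 1052 were called with a difference of that size, a share close to that of the guidance genes.

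**Figure D2:**
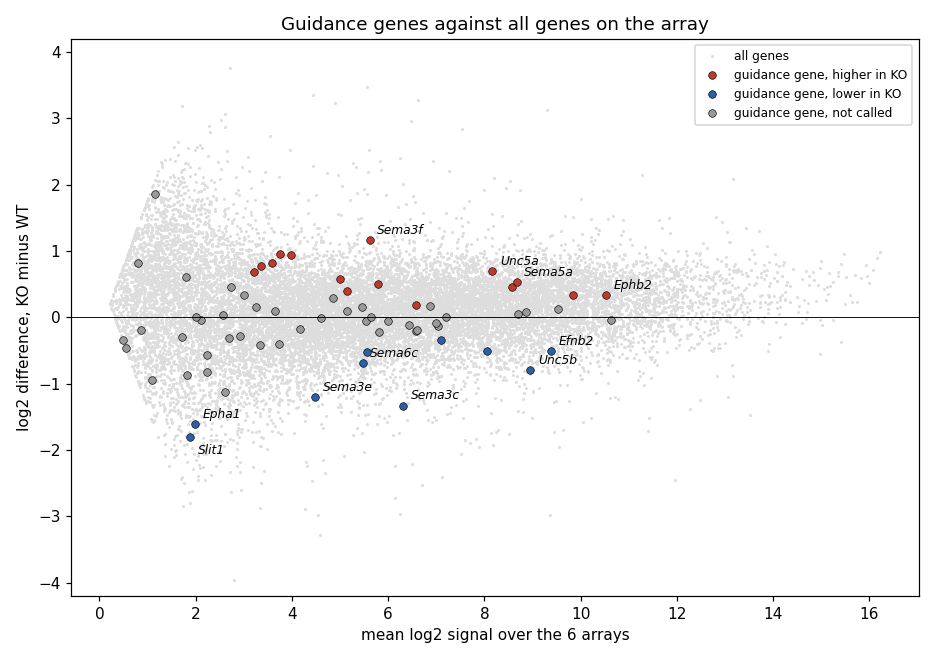
Log2 difference, KO minus WT (vertical axis), against the mean log2 signal over the 6 arrays (horizontal axis) for all genes (grey dots) and the guidance genes (large points, coloured by call). The cloud widens at low signal, and Slit1 and Epha1 sit in that wide part, whereas Sema3c, Sema3e and Sema3f lie at medium signal. Other genes at medium signal differ more, such as Lrat (2.41 at a signal of 6.25) and Thy1 (-2.24 at 6.14).

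The semaphorins were the largest family, with 20 genes measured. Of these, 6 were higher, 3 were lower and 11 did not pass, so that 45% were called, close to the 44.3% of all genes. All 3 semaphorins that changed by more than 2-fold belong to class 3. Sema3c, a secreted cue that acts through neuropilins and plexins, had log2 signals of 5.48, 5.68 and 5.79 on the KO arrays, against 6.98, 6.99 and 6.97 on the WT arrays. The WT values were nearly equal and lay above all 3 KO values. Its mean was 5.65 ± 0.16 in KO cells and 6.98 ± 0.013 in WT cells (SD, n = 3 each), and it was 2.51-fold lower in KO cells, a difference of -1.33 ± 0.09 (SE) at an adjusted p of 0.000681. Sema3e, which binds plexin D1 without a neuropilin, read 3.78, 3.93 and 3.93 in KO cells and 5.02, 5.07 and 5.17 in WT cells. Every KO value was more than 1 log2 unit below every WT value, and the fall measured -1.21 ± 0.07 (SE) at an adjusted p of 0.000565. Sema3f, best known as a ligand of neuropilin 2, moved the other way, with 6.27, 6.18 and 6.14 in KO cells and 4.93, 5.11 and 5.05 in WT cells. It was 2.24-fold higher in KO cells, with a difference of 1.17 ± 0.07 (SE) and an adjusted p of 0.000566.

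The other class 3 genes showed that the family did not move as one. Sema3a, a well-known repellent of axons, read 10.56, 10.59 and 10.69 in KO cells and 10.60, 10.69 and 10.65 in WT cells. The groups overlapped, and the difference was -0.03 (95% confidence interval -0.18 to 0.12; adjusted p 0.689). After quantile normalisation Sema3a passed as lower (-0.20, adjusted p 0.0323). Sema3d was higher by 0.19 ± 0.04 (SE) with an adjusted p of 0.0207, close to the 0.12 by which all probes were shifted. Its call ended after quantile normalisation, at a difference of 0.13 and an adjusted p of 0.0604, and after the upper-quartile shift, at 0.09 and 0.193. It also ended without KO replicate 1 (0.0597) or 2 (0.0648) and without WT replicate 1 (0.0603) or 2 (0.0784), and when the replicate number was a block (0.0901). Sema3b was dim and uneven in KO cells, with 1.11, 3.12 and 1.91, against 3.14, 3.24 and 3.14 in WT cells. Its difference of -1.13 had an adjusted p of 0.144, which became 0.0150 without KO replicate 2. Sema3g, with overlapping groups, differed by -0.82 (adjusted p 0.158).

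The promoters of Sema3c and Sema3e are shown because these genes fell by similar amounts and lie near each other on chromosome 5. By gene order in the RefSeq annotation of GRCm38.p6, Sema3d and Sema3a are neighbours with 0 coding genes between them, 3 coding genes separate Sema3a from Sema3e, and 15 separate Sema3e from Sema3c. The differences along this stretch were 0.19, -0.03, -1.21 and -1.33. Each sequence is the 250 bases before the annotated start, from RefSeq on GRCm38.p6, at chr5:17574566-17574815 for Sema3c and chr5:14025026-14025275 for Sema3e, both on the plus strand. Capitals mark matches on either strand to CTTTGA, the core bound by TCF/LEF factors, TGANTCA, bound by AP-1, or GGAATG, bound by TEAD factors.
Sema3c: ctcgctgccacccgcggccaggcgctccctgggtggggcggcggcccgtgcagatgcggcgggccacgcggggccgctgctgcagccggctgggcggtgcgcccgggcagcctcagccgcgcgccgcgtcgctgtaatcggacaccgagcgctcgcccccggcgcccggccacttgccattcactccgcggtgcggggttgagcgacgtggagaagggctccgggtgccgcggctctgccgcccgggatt
Sema3e: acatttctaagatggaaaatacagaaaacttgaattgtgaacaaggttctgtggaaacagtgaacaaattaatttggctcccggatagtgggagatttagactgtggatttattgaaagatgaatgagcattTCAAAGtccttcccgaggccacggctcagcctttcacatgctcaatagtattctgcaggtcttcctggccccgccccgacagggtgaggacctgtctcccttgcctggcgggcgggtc
Sema3e holds 1 TCF/LEF match, which begins 118 bases before the start, and Sema3c holds none of the 3 motifs. The Sema3c window is 78.4% G or C with 39 CG dinucleotides, and the Sema3e window is 48% G or C with 7, beside a median of 52.4% G or C over all promoters. The TCF/LEF letters occur in 13.8% of 32851 promoter windows of this length, the AP-1 letters in 6.75% and the TEAD letters in 12.6%. A match describes the sequence and does not show that a factor binds there.

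Among the semaphorins of classes 4 to 7, which are mostly bound to the membrane, 4 were higher, 1 was lower and 8 did not pass. The shares, 30.8% higher and 7.69% lower, compare with 29.4% and 14.9% of all genes. Sema5b read 3.45, 3.71 and 3.48 in KO cells and 2.93, 2.80 and 2.85 in WT cells. The rise measured 0.68 ± 0.09 (SE) at an adjusted p of 0.00340, and with a trended, robust variance prior the adjusted p was 0.0772. Sema5a, which like Sema5b carries thrombospondin repeats beside its semaphorin domain, read 8.87, 8.96 and 8.98 in KO cells and 8.35, 8.49 and 8.37 in WT cells. Both class 5 genes thus lay above WT on every KO array, Sema5a by 0.53 ± 0.06 (SE) with an adjusted p of 0.00251. Sema6a, a transmembrane ligand of A-type plexins, read 5.20, 5.42 and 5.26 in KO cells and 4.94, 4.70 and 4.51 in WT cells, a difference of 0.58 ± 0.13 (SE) with an adjusted p of 0.0194. That call ended without KO replicate 2 (0.0609) or 3 (0.0517), without WT replicate 2 (0.0636) and with the replicate block (0.0617). Sema4a was higher by 0.45 ± 0.07 (SE), with an adjusted p of 0.00514. Sema6c was the one member of these classes called lower, with 5.09, 5.33 and 4.96 in KO cells and 5.91, 5.75 and 5.77 in WT cells, a difference of -0.68 ± 0.11 (SE) and an adjusted p of 0.00716.

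The remaining membrane semaphorins were mostly dim. Sema4b, Sema4c, Sema4d, Sema4f, Sema4g, Sema6b, Sema6d and Sema7a did not pass, with adjusted p-values from 0.288 to 0.9999. Sema7a, a GPI-anchored semaphorin that binds integrins, was at the lowest value on all 3 KO arrays and read 0.10, 1.24 and 1.02 on the WT arrays, so its KO level is only a bound. Sema4d, the ligand of plexin B1, was at the lowest value on 2 KO arrays. Sema6d was bright enough to be measured and read 6.89, 6.93 and 7.05 in KO cells and 6.998, 7.06 and 7.08 in WT cells. Its interval ran from -0.25 to 0.07.

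**Figure D3:**
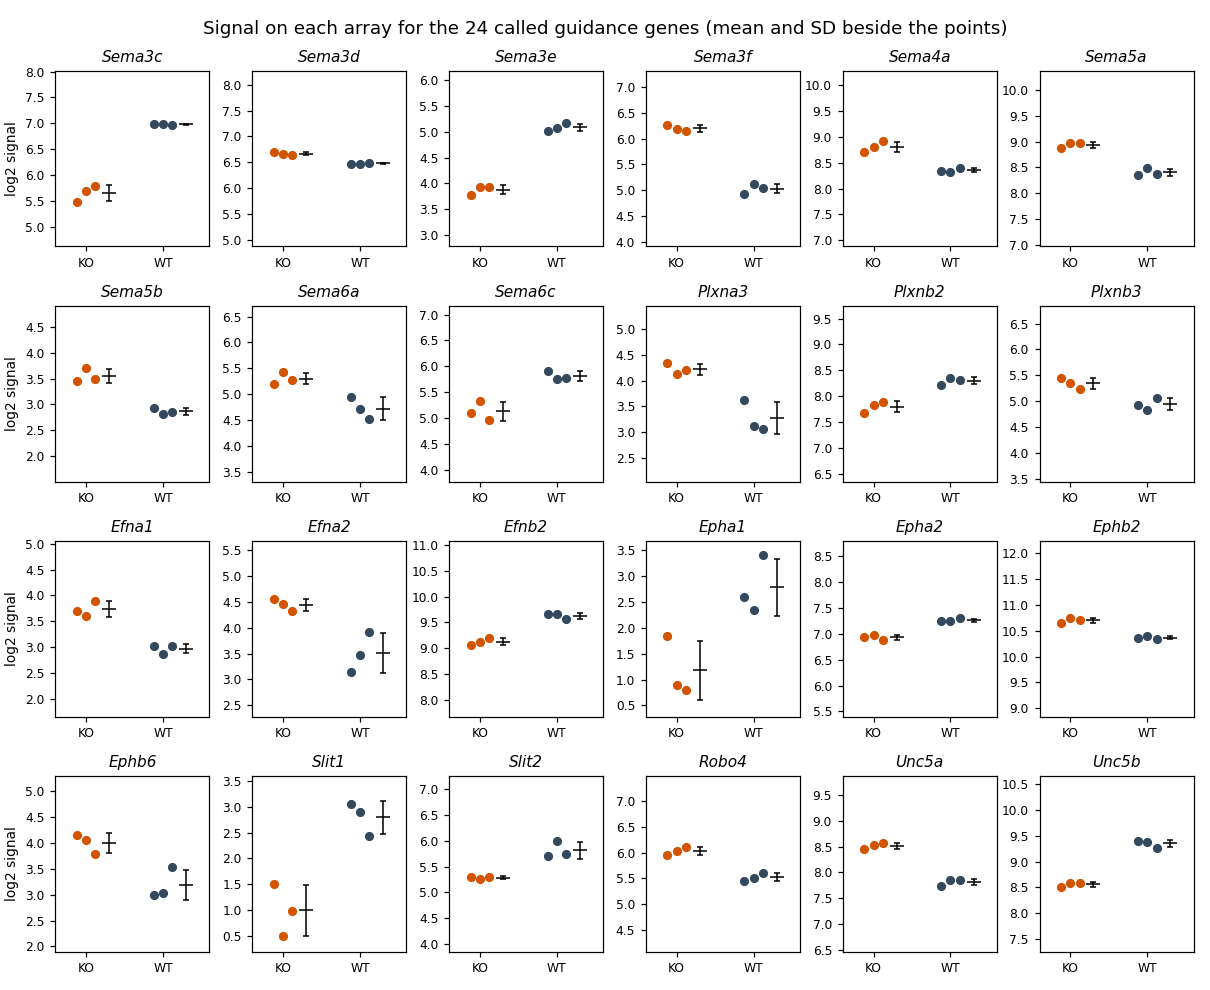
Log2 signal on each array (points) for the 24 called guidance genes other than Unc50, KO at the left of each panel and WT at the right, with the mean and SD (n = 3) beside the points. All panels span the same number of log2 units; no panel shows an overlap of the groups, and the spread is widest in Epha1 and Slit1.

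Of the receptors for semaphorins, 8 plexins and Nrp1 were measured, and 2 plexins were higher and 1 was lower. These shares of the plexins, 25% and 12.5%, were no higher than the 29.4% and 14.9% of all genes. Plxna3 was dim, with 4.34, 4.13 and 4.19 in KO cells and 3.63, 3.11 and 3.07 in WT cells. All KO values lay above WT, by 0.95 ± 0.17 (SE) on average, with an adjusted p of 0.00954. Plxnb3, a receptor of Sema5a, was higher by 0.40 ± 0.09 (SE), with 5.45, 5.35 and 5.23 in KO cells, 4.93, 4.83 and 5.06 in WT cells and an adjusted p of 0.0197. Its call ended after the upper-quartile shift (0.0656), with the replicate block (0.0771), without KO replicate 1 (0.0549) or 2 (0.0612) and without WT replicate 1 (0.0622) or 2 (0.0617). Plxnb2, a receptor of class 4 semaphorins, was lower, with 7.68, 7.82 and 7.88 in KO cells and 8.22, 8.35 and 8.32 in WT cells. The fall measured -0.50 ± 0.08 (SE) at an adjusted p of 0.00529.

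Of the receptors that serve Sema3c and Sema3e, Plxnd1 and Nrp1 were measured with little spread and did not pass. Neuropilin 2, named above for Sema3f, was not among the measured members. Plxnd1, the receptor of Sema3e, read 8.92, 8.86 and 8.94 in KO cells and 8.87, 8.85 and 8.77 in WT cells. The groups overlapped, and the interval of the difference ran from -0.06 to 0.21, which leaves out a change as large as that of its ligand. Nrp1, the co-receptor of several class 3 semaphorins, read 7.03, 6.93 and 6.92 in KO cells and 6.83, 6.83 and 6.69 in WT cells, a difference of 0.18 with an adjusted p of 0.0834. Without the dimmest 25% of probes its adjusted p was 0.0490, and with the trended, robust prior it was 0.0224. Plxna2 had a difference of -0.21 (adjusted p 0.0895) as deposited and of -0.27 (adjusted p 0.0309) after quantile normalisation. It also passed as lower after the upper-quartile shift (0.0174) and with the trended, robust prior (0.0144). Plxna1, Plxna4 and Plxnb1 had differences of 0.15, -0.01 and 0.00, and adjusted p-values of 0.266, 0.954 and 0.996.

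Of the ephrins 3 of 8 were called (37.5%) and of their receptors 4 of 14 (28.6%), against 44.3% of all genes and 30.3% of those with a mean signal of 3 to 5, the range that holds the median of both families. A difference between the A and B classes was not tested. Of 5 A ephrins, which are held on the membrane by a GPI anchor, 2 were higher and none was lower. Of 3 B ephrins, which span the membrane, 1 was lower and none was higher. Of 9 Epha receptors 2 were lower, and of 5 Ephb receptors 2 were higher. Efna1 read 3.70, 3.61 and 3.90 in KO cells and 3.02, 2.87 and 3.01 in WT cells, a difference of 0.77 ± 0.10 (SE) with an adjusted p of 0.00285. Efna2 read 4.56, 4.46 and 4.32 in KO cells and 3.14, 3.48 and 3.92 in WT cells, a difference of 0.93 ± 0.21 (SE) with an adjusted p of 0.0196. Its WT values were widely spread, and the call ended without KO replicate 1 (0.0631) or 2 (0.0588), without WT replicate 2 (0.0639) and with the replicate block (0.0713). Efnb2, a B ephrin known from arterial endothelium and pericytes, read 9.05, 9.12 and 9.19 in KO cells and 9.66, 9.66 and 9.57 in WT cells. It was lower on every KO array and fell by 0.50 ± 0.06 (SE) with an adjusted p of 0.00248.

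Among the Eph receptors the bright genes changed little. Ephb2, a receptor of B ephrins, read 10.66, 10.75 and 10.70 in KO cells and 10.36, 10.41 and 10.34 in WT cells. Its difference of 0.34 ± 0.05 (SE) had an adjusted p of 0.00500, and after quantile normalisation the difference was 0.15 with an adjusted p of 0.0437. Epha2, the main receptor of Efna1, read 6.93, 6.99 and 6.87 in KO cells and 7.24, 7.25 and 7.30 in WT cells, a difference of -0.33 ± 0.05 (SE) with an adjusted p of 0.00591. Ephb6, a receptor without kinase activity, was dim and read 4.15, 4.07 and 3.78 in KO cells and 2.999, 3.04 and 3.53 in WT cells. It was higher by 0.81 ± 0.19 (SE) with an adjusted p of 0.0200, and the call ended without KO replicate 1 or 2 (0.0629 each), without WT replicate 1 (0.0626) or 2 (0.0668) and with the replicate block (0.0858). Epha1 was near the lowest values, with 1.84, 0.89 and 0.81 in KO cells and 2.60, 2.34 and 3.41 in WT cells. The fall measured -1.61 ± 0.41 (SE) at an adjusted p of 0.0288, and -1.0001 with a linear offset added. The call ended without KO replicate 2 (0.0839) or 3 (0.0823), without WT replicate 1 (0.0678) or 3 (0.0671) and with the replicate block (0.0772).

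Ephb4, the receptor that prefers Efnb2, read 7.06, 7.30 and 7.25 in KO cells and 7.15, 7.28 and 7.16 in WT cells, and its interval ran from -0.20 to 0.22. Epha3 and Epha7 were bright, with means of 8.73 and 9.60 in KO cells and 8.67 and 9.47 in WT cells, and they differed by 0.05 and 0.12 with adjusted p-values of 0.415 and 0.150. With the trended, robust prior Epha7 passed (0.0219). Epha5 was at the lowest value on 2 WT arrays and read 3.05, 2.42 and 0.78 in KO cells against 0.33, 0.12 and 0.22 in WT cells. Its difference of 1.86 had an adjusted p of 0.0595, and 0.00497 without KO replicate 3, the lowest of the KO arrays for this gene. The others that did not pass were Epha4, Epha6, Epha8, Epha10, Ephb1 and Ephb3 among the receptors and Efna3, Efna4, Efna5, Efnb1 and Efnb3 among the ligands. Ephb3 passed as lower after quantile normalisation, with a difference of -0.21 and an adjusted p of 0.0435.

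The promoters of Epha2 and Efnb2, both lower in KO cells, are shown because they hold motifs of the 3 searched. They are the 250 bases before the start from RefSeq on GRCm38.p6, at chr4:141300971-141301220 on the plus strand for Epha2 and chr8:8661243-8661492 on the minus strand for Efnb2, with matches in capitals as above.
Epha2: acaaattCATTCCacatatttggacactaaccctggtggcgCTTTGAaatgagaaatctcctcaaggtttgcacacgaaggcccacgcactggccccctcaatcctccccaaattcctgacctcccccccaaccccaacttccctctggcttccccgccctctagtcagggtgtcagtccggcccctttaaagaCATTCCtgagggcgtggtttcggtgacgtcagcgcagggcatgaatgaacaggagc
Efnb2: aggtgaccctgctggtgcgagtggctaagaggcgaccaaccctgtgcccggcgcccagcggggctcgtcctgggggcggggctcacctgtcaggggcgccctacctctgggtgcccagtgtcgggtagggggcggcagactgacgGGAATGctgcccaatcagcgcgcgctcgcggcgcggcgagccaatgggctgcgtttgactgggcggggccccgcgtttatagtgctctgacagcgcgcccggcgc
Epha2 holds 1 TCF/LEF match that begins 209 bases before the start and 2 TEAD matches that begin 243 and 56 bases before it, and Efnb2 holds 1 TEAD match that begins 105 bases before its start. A promoter was found for 59 of the 68 genes. The TEAD letters were in the window of 3 of 9 called lower genes, 1 of 13 called higher genes and 5 of 37 genes that did not pass. The TCF/LEF letters were in 2 of 9 lower, 1 of 13 higher and 0 of 37 other genes, and the AP-1 letters in 0 of 9, 0 of 13 and 3 of 37. With so few genes these counts are a description of the sequences.

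Of the 3 Slits 2 were called, both lower in KO cells, beside 14.9% of all genes called lower. Every other family with more than 1 called gene had calls in both directions, but 3 genes are too few to describe a family. Slit2, a secreted repellent and the best studied ligand of Robo1, read 5.30, 5.26 and 5.31 in KO cells and 5.70, 6.002 and 5.74 in WT cells. It fell by 0.53 ± 0.09 (SE) with an adjusted p of 0.00886. Slit1 was near the lowest values in KO cells, with 1.49, 0.50 and 0.98, against 3.04, 2.90 and 2.43 in WT cells. The fall measured -1.80 ± 0.31 (SE) at an adjusted p of 0.00758 and -1.09 with a linear offset, and its size is imprecise. Slit3 overlapped between the genotypes, with 5.14, 5.40 and 5.04 in KO cells and 5.12, 5.25 and 4.92 in WT cells, and its difference was 0.09 with an adjusted p of 0.613.

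Of the 4 Robo receptors, 1 was higher and 3 did not pass. Robo4, the receptor of this family that is known from endothelial cells, read 5.96, 6.02 and 6.11 in KO cells and 5.46, 5.51 and 5.61 in WT cells, a difference of 0.50 ± 0.07 (SE) with an adjusted p of 0.00370. Robo1 and Robo2, the receptors of the Slits, differed by -0.41 and -0.19 with adjusted p-values of 0.229 and 0.156. Robo2 passed as lower after the upper-quartile shift (-0.29, adjusted p 0.0486) and with the trended, robust prior (0.0318). Robo3, whose gene adjoins that of Robo4 on chromosome 9, had a difference of 0.30 (adjusted p 0.0751), which passed without the dimmest 25% of probes (0.0448). Of 11 measured genes of the endothelial marker list, which includes Robo4, 4 were higher and 1 was lower in KO cells, against 29.4% and 14.9% of all genes, and the median difference was 0.04. Their summed linear signal was 2188 to 2222 on KO arrays and 1126 to 1151 on WT arrays, of which Plvap alone made up 72.7% in KO cells and 58.8% in WT cells. None was at the lowest value on any array. Plvap was higher by 1.26, Stab1 by 0.73 and Oit3 by 0.75, and Emcn fell by 1.63. Pecam1, Kdr and Tie1 differed by 0.02, -0.01 and 0.04 with adjusted p-values of 0.873, 0.934 and 0.769. The part of endothelial cells in the differences of Robo4, Efnb2, Unc5b and other genes that endothelium also uses was not tested.

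The Unc5 receptors, which mediate repulsion by netrins, included a pair that moved in opposite directions. Unc5a read 8.46, 8.53 and 8.56 in KO cells and 7.74, 7.85 and 7.85 in WT cells. It was higher by 0.70 ± 0.06 (SE) with an adjusted p of 0.000976. Unc5b, which is also known from endothelial tip cells, read 8.51, 8.58 and 8.58 in KO cells and 9.40, 9.39 and 9.27 in WT cells. It fell by 0.79 ± 0.06 (SE) with an adjusted p of 0.000763 and was 1.73-fold lower. Unc5c had overlapping groups, with 6.01, 5.94 and 5.96 in KO cells and 5.93, 6.09 and 6.06 in WT cells, and Unc5d was near the lowest values. Of the 4 genes grouped as netrins by symbol none passed, against 44.3% of all genes. Their median signal was 2.06, and 13.1% of all genes with a signal under 3 passed. Ntn1, the classical netrin, was dim and differed by 0.16 (adjusted p 0.660), and Ntn4, a netrin of basement membranes, differed by -0.21 (adjusted p 0.125). Ntn4 passed as lower after the upper-quartile shift, with -0.32 and an adjusted p of 0.0384, and without KO replicate 3, with -0.29 and an adjusted p of 0.0490. Ntn2l was at the lowest value on all 3 KO arrays. The 2 probes of Ntng1 were both near the lowest values and differed by -0.18 and 0.79, with adjusted p-values of 0.862 and 0.189. Of the genes taken by letters alone, Unc50 was higher by 0.34 with an adjusted p of 0.00568 and Unc5cl did not pass.

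Unequal change within a family can be read on each array by taking the difference of 2 probes and comparing it between the genotypes. The pairs were chosen after their values were seen, and the changes are given without a test. The log2 ratio of Sema3f to Sema3c changed by 2.49 ± 0.14 (SE, n = 3 each) between KO and WT cells, and the KO arrays lay 2.30 to 2.74 above the WT mean. The ratio of Sema3f to Sema3e changed by 2.37 ± 0.10 and that of Unc5a to Unc5b by 1.49 ± 0.07. Smaller changes were found for Plxna3 to Plxnb2, at 1.45 ± 0.25, for Efna1 to Efnb2, at 1.27 ± 0.09, and for Ephb2 to Epha2, at 0.67 ± 0.05. A common shift of an array cancels in these ratios, whereas quantile normalisation does not and gave 2.52, 2.33, 1.52, 1.57, 1.42 and 0.57 for the 6 pairs in the same order.

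Both ligands and receptors were among the called genes, at 40% and 32.3%, against 44.3% of all genes, and a difference between them was not tested. Of 35 ligand genes (semaphorins, ephrins, Slits and netrins), 8 were higher and 6 were lower, with a median difference of -0.09. Of 31 receptor genes, 6 were higher and 4 were lower, with a median of 0.01. Of the 5 called genes that changed at least 2-fold, all but Epha1 are secreted ligands, the higher Sema3f among them. These genes were picked by their values, Slit1 and Epha1 were near the lowest values, and an excess of secreted ligands was not tested.

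A list of 74 other genes of these pathways, made up of co-receptors, further ligands and the proteins that carry the signal to actin, had 67 measured members. Of these, 25 were higher (37.3%) and 11 were lower (16.4%), against 29.4% and 14.9% of all genes, and the median difference was 0.13. The list was brighter than the array, with a median signal of 6.16 against 5.38 for all genes. Its share called in either direction, 53.7%, was close to the 55.6% of all genes with a signal of 5 to 7. After quantile normalisation 21 were higher (31.3%) and 14 lower (20.9%), against 24.7% and 19.5% of all genes, and after the upper-quartile shift 19 were higher (28.4%) and 14 lower, against 23.8% and 20.1%. Without KO replicate 2 or without WT replicate 2 the number higher was 16 (23.9%), against 24.3% of all genes in both fits. The 5 largest rises were those of Trio (1.92) and Vav3 (1.52), guanine nucleotide exchange factors, Farp1 (0.91), another exchange factor, Rnd3 (0.90), an atypical small GTPase, and Neo1 (0.82), the netrin and RGM receptor neogenin. Trio and Vav3 were near the lowest values in WT cells, which leaves the sizes of both rises imprecise. Farp1 read 10.81, 10.74 and 10.75 in KO cells and 9.89, 9.87 and 9.79 in WT cells, with an adjusted p of 0.000538. Rnd3 read 10.17, 10.20 and 10.25 in KO cells and 9.30, 9.36 and 9.26 in WT cells, with an adjusted p of 0.000557.

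The 5 largest falls in that list were those of Enah (-1.35), which promotes actin filament growth, L1cam (-1.35), an adhesion molecule and co-receptor of Sema3a with neuropilin 1, Ngef (-1.19), the exchange factor ephexin that acts below EphA receptors, Abl2 (-1.10), a tyrosine kinase, and Mical2 (-1.07), of the MICAL family of actin-oxidising enzymes. L1cam read 4.35, 4.61 and 3.88 in KO cells and 5.67, 5.64 and 5.59 in WT cells, with an adjusted p of 0.00436. Mical2 read 5.55, 5.58 and 5.74 in KO cells and 6.70, 6.71 and 6.66 in WT cells, with an adjusted p of 0.000590.

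**Figure D4:**
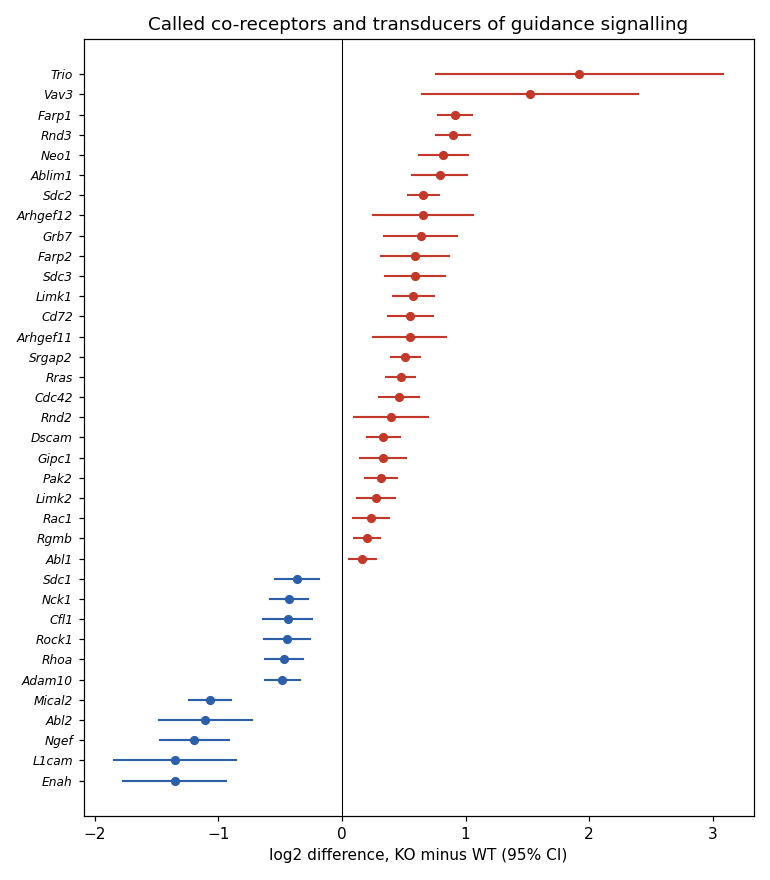
Log2 difference, KO minus WT (points), with its 95% confidence interval (lines), for the 36 called genes among the 67 measured co-receptors and signal transducers outside the symbol rule. Red genes were higher and blue genes lower in KO cells; Trio and Vav3 show the largest rises, with wide intervals, and Enah and L1cam the largest falls.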

How the data were processed

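Messenger RNA of hepatic stellate cells was measured on 6 single-colour arrays, 3 of Sept4 knockout and 3 of wild-type mice with cirrhosis. Per the labels, total RNA was extracted with phenol and chloroform, labelled with Cy5, and the values were quantile normalised by the authors; the deposited arrays share a median but not their highest values, so their distributions are not identical. The deposited table gives log2 signals for 23473 probes; the base of the logarithm was judged from their range, as no source states it. The labelling text refers to a microRNA kit and to tumours, so the design was read from the genotype and cell type labels. The sources used here do not give the background correction or the scanner. The platform annotation names 16631 probes with 1 symbol, 0 with several and 6842 with none. All 68 members matched a current symbol in RefSeq.

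Genotypes were compared in R 4.3.3 with limma 3.58.1 (lmFit, then eBayes), two-sided, with Benjamini-Hochberg adjustment over all probes and a threshold of 0.05. There were 4 residual and 1.11 prior degrees of freedom. Precision is limited by having 3 arrays per genotype. By rule, array values are given for up to 4 called members per family and direction, by size, and up to 5 genes per direction of the pathway list are named; other members given values were chosen after these were seen. The members and lists were chosen with earlier results of these data known. Titles number the arrays 1 to 3 in both genotypes, but deviations from the group means correlated between same-numbered arrays at -0.0020 to 0.0077, so the number was not used as a block in the reported fit. The linear offset was the 10th percentile of all values. Figures were drawn with matplotlib 3.10.9.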

Additional observations from a re-analysis of the deposited data

How the results depend on the processing

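The number of guidance genes called higher was 15 as reported and 10 to 17 under the 13 alternatives, and the number called lower was 10 as reported and 8 to 14. The alternatives were 2 scalings, leaving out the dimmest 25% of probes, a linear offset, a trended and robust prior, the replicate block, leaving out each array, and the mean of a gene's probes. Over all genes the share higher was 29.4% as reported and 23% to 38.7% under these alternatives. The share lower was 14.9% as reported and 10.8% to 20.5%. Both shares were highest without the dimmest 25% of probes. The median difference of the guidance genes, -0.022, was -0.090 after quantile normalisation, -0.12 after the upper-quartile shift, and 0.053 without the dimmest 25% of probes, which removes 17 of the members and so changes what the median is taken over; for the scalings the cause was not tested. It lay between -0.067 and -0.0095 when 1 array was left out. In the pathway list the number higher was 25 as reported and 16 to 29 under the 13 alternatives, the highest with the trended, robust prior, 18 with the replicate block, and 16 to 22 when 1 array was left out, with fewer arrays in each such fit; the number lower was 11 as reported and 10 to 14. Among the 25 called members, 18 kept their call and direction under every alternative that included them; Sema3d, Plxnb3, Ephb6, Epha1, Efna2, Sema6a and Sema5b lost it under at least 1, and no called member changed direction. Of those not called, 14 passed under at least 1 alternative: Sema3a, Sema3b, Sema6b, Sema7a, Nrp1, Plxna2, Epha5, Epha7, Ephb3, Robo2, Robo3, Ntn2l, Ntn4 and Unc5d. Same-numbered arrays did not deviate together. With the replicate block, 10 guidance genes were higher and 9 lower, and 7724 probes in all were called, against 10025 without it. Low signal limits what can be said of the 20 members with a mean log2 signal under 3.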
